A study of Mus musculus with 13 samples.

Results

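The Dlx and Msx homeobox genes were followed in whole mouse embryos of embryonic day 9.5. The set was the 8 rows of the deposited table named Dlx1, Dlx2, Dlx3, Dlx4, Dlx5, Dlx6, Msx1 and Msx2, out of 23217 genes in all. All 8 were found, and 7 of them reached a mean of 1 FPKM (sequenced fragments divided by transcript length and by library size) and entered the test between groups. The series asks what Tet1, which converts methylated cytosine to its hydroxymethylated form, does when genomic imprints are wiped. It holds polyadenylated RNA of 3 embryos labelled xHet and 10 labelled xHomo, all on the C57BL/6J strain background. The labels do not spell out either name. From what is known of the study, they give the father's genotype at a mutated Tet1, heterozygous (xHet) or homozygous (xHomo). Neither the mother's genotype, litter, sex nor somite number is in the labels, so p-values measure only the spread between these samples.

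Dlx and Msx proteins are transcription factors that bind DNA through a homeodomain. Dlx genes lie in 3 linked pairs whose members point toward each other and share enhancers, and Msx genes stand alone in the genome. In the embryo of this age both families act downstream of bone morphogenetic protein (BMP) signals in the pharyngeal arches, limb buds and surface ectoderm. In the arches Dlx1 and Dlx2 mark the whole arch mesenchyme, while Dlx5 and Dlx6 mark its lower part under endothelin control. Dlx1 and Dlx2 also serve the ventral forebrain, Dlx3 the surface ectoderm and placenta, and Msx1 and Msx2 the roof plate of the neural tube. Dlx proteins mostly activate and Msx proteins mostly repress through similar sites.

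The shared part of the genes is the homeobox, and the third helix of the homeodomain makes the main contacts with DNA. Codons 42 to 58 of the homeobox, 51 bases found through the adjoining codons for tryptophan, phenylalanine, glutamine and asparagine at codon 48, are shown for 7 of the genes because they display what the families share and where Msx2 departs from Dlx. They come from the longest coding transcript holding these codons in GENCODE M21 (build GRCm38), 5′ to 3′, and capitals mark bases other than the most common one (or those tied for it) at that position over the 8 genes.
Dlx1: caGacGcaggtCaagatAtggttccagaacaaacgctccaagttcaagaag
Dlx2: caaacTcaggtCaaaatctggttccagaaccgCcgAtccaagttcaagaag
Dlx3: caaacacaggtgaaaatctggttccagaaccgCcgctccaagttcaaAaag
Dlx4: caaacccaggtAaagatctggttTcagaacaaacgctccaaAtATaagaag
Dlx5: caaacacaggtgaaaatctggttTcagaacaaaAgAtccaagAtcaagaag
Dlx6: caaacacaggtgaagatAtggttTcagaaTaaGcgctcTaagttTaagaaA
Msx2: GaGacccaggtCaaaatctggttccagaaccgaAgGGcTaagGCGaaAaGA

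The 6 Dlx genes carried 2 to 7 bases in capitals, Msx2 carried 13, and Msx1, which is not printed, carried 9. Since 6 of the 8 genes compared are Dlx, the marking itself favours low counts in Dlx. In each Dlx gene the 51 bases were split between exons 2 and 3 of 3, and in Msx2 they lay within exon 2 of 2, at chr13:53468376-53468426 on the minus strand. Over the whole homeobox of 180 bases, identity ran from 66.1% to 81.7% over the 15 Dlx pairs and was highest among them between Dlx2 and Dlx3. Between Msx2 and the Dlx genes it ran from 54.4% to 64.4%. The longest exact run shared by any pair of these 7 transcripts was 44 bases, between Dlx6 and Msx2, and the next was 26 bases, between Dlx2 and Msx2. How reads that match several places were assigned is not stated.

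Loci are those of the deposited table (build mm9), printed with starts counted from 1. Dlx1 is at chromosome 2, 71367502 to 71375948, and Dlx2 at 71381465 to 71384811, 5.52 kb apart. Dlx3 is at chromosome 11, 94981431 to 94986605, and Dlx4 at 95001761 to 95020361. On chromosome 6 the locus given for Dlx6, 6770546 to 6819533, also holds 2 noncoding transcripts, Dlx6as1 and Dlx6as2, and Dlx5 follows at 6827805 to 6832068. Msx1 is at chromosome 5, 38211730 to 38215824, with the antisense transcript Msx1as listed at the same locus, and Msx2 is at chromosome 13, 53562250 to 53568149. Dlx1 likewise shares its locus with Dlx1as, and Dlx4 with A730090H04Rik. The library kit was directional, but strand use in the counting is not stated, so reads of these overlapping genes may have been divided between them.

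Some libraries stood apart over all genes. In xHomo embryo 3, 10.2% of tested genes lay 1 log2 unit or more away from the mean of the xHet embryos. The share was 4.56% in xHomo embryo 9 and 1.09% to 2.30% in the other 11 embryos. Xist, transcribed from the inactive X of females, was under 1 FPKM in 3 of 3 xHet and 5 of 10 xHomo embryos, so sex is not balanced. Tet1 itself stood between 1.93 and 2.61 FPKM in xHet and between 1.11 and 2.87 FPKM in xHomo embryos, so its level in the embryo does not separate the labels. Markers of heart, neural tube, somite and blood were present in each library, as the whole-embryo label says. Trophoblast markers were mixed. Tpbpa, Psg21 and Ctsq were listed at 0 in all 13 embryos, and Gcm1, Psg17 and Esx1 did not exceed 0.38 FPKM. Prl3d1, Prl3b1, Prl2c2 and Ascl2 had highest values of 2.67, 3.28, 2.54 and 1.89 FPKM. Plac1 was 3.84 to 9.59, Hand1 8.83 to 14.7 and Tfap2c 1.95 to 6.58 FPKM over the 13 embryos. Read depth is unknown, so values near 0 are the least certain.

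The levels of the 8 genes covered a wide range. Msx2 (mean over 13 embryos 11.1 FPKM) and Msx1 (10.6 FPKM) were highest. Dlx5 (4.60 FPKM), Dlx2 (4.15 FPKM), Dlx3 (3.19 FPKM) and Dlx6 (2.60 FPKM) followed, then Dlx1 (1.45 FPKM), with Dlx4 at the bottom (0.159 FPKM). FPKM is per length, so genes can be set side by side within an embryo. Neighbours in this order were compared by the difference in log2(FPKM+1) in each embryo, with an exact sign-flip permutation test (two-sided, 13 embryos, adjusted over 7 pairs). The order came from these same values, so which pairs were compared, and in which direction, was not set beforehand. Msx1 lay above Dlx5 in 13 of 13 embryos by 1.02 ± 0.28 (SD), adjusted exact p = 0.0009. Dlx6 lay above Dlx1 in 12 of 13 embryos by 0.54 ± 0.31, adjusted exact p = 0.0017. Dlx1 lay above Dlx4 in 13 of 13 by 1.07 ± 0.22, adjusted exact p = 0.0009. That value and the one for Msx1 over Dlx5 rest on the smallest p the permutations can give, 0.0002 before adjustment. The other 4 neighbours were not separated beyond their spread. Msx2 over Msx1 gave 0.08 ± 0.23 (8 of 13 embryos, adjusted exact p = 0.227). Dlx5 over Dlx2 gave 0.13 ± 0.32 (7 of 13, adjusted exact p = 0.172). Dlx3 over Dlx6 gave 0.22 ± 0.52 (8 of 13, adjusted exact p = 0.172), and in the xHet means alone Dlx3 (2.09 FPKM) lay below Dlx6 (2.33 FPKM). Dlx2 over Dlx3 gave 0.31 ± 0.44 (11 of 13, adjusted exact p = 0.0526), and this pair passed without xHomo embryo 9 (0.41, adjusted exact p = 0.00256) or without xHomo embryo 8 (0.34, adjusted exact p = 0.047), and after TPM rescaling (0.35, adjusted exact p = 0.0496).

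**Figure D1:**
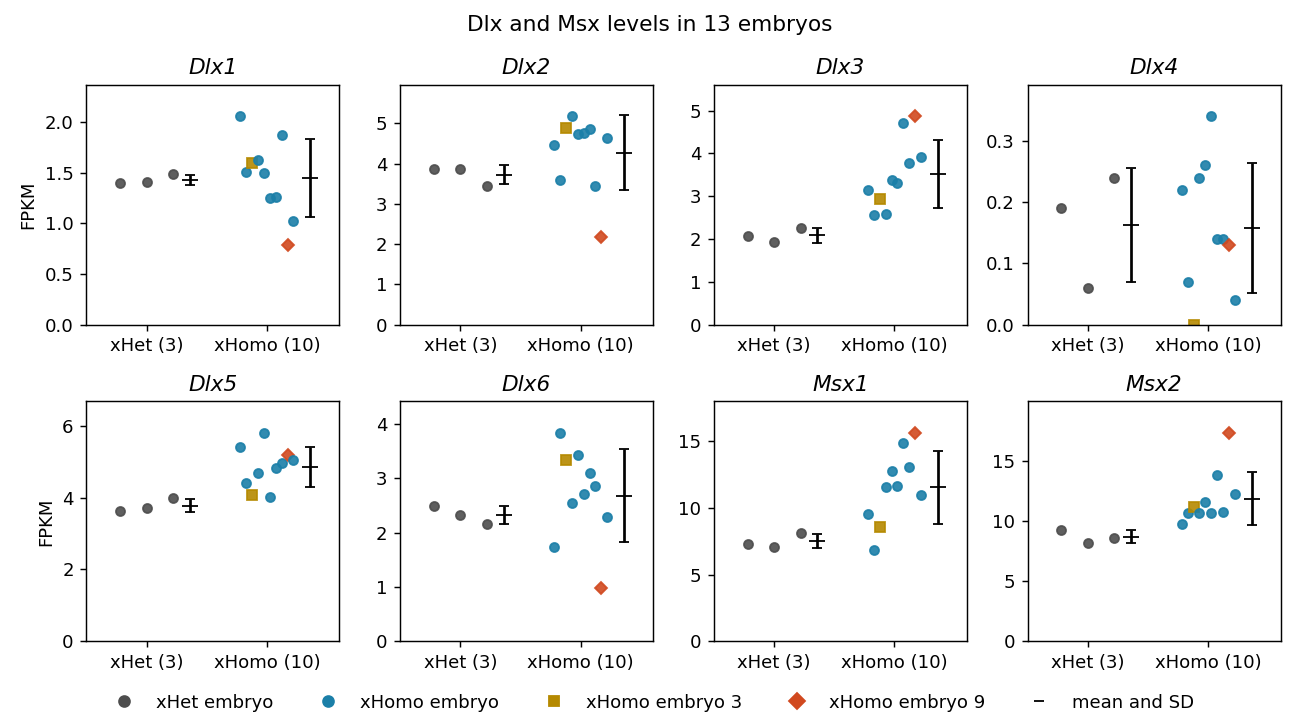
Levels of the 8 genes in FPKM (vertical axis, from 0, scaled for each gene), with 1 point per embryo for the 3 xHet and 10 xHomo embryos and the mean and SD at the right of each group. Points of Dlx3, Dlx5 and Msx2 do not overlap between groups, and xHomo embryo 9 (diamond) is the lowest for Dlx1, Dlx2 and Dlx6 and the highest for Dlx3, Msx1 and Msx2.

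The question of the design was whether these genes differ between xHomo and xHet embryos. Dlx3, Dlx5, Msx1 and Msx2 had higher means in the xHomo embryos by 0.29 to 0.53 on the log2(FPKM+1) scale, while Dlx1, Dlx2 and Dlx6 had mean differences from -0.01 to 0.13. None of the 7 passed the test adjusted over all genes. The log2 change was above 0 for 6 of 7, against 59.7% of all genes tested. In limma 0 of the 7 tested members had an adjusted p under 0.05, against a background of 0.0235% of 12755 genes (3 genes). At an unadjusted p under 0.05, 4 of 7 were higher and 0 lower, where the background was 7.63% higher and 1.72% lower. Groups did not overlap for 3 of 7 (Dlx3, Dlx5 and Msx2, all higher), against 1.66% of all genes tested. An exact permutation test tried each way to divide the embryos into 3 and 10, and after adjustment 0 of 7 members and 0 of all genes passed. Its unadjusted exact p was 0.00699 for Dlx3, 0.0035 for Dlx5, 0.028 for Msx1 and 0.014 for Msx2. For Dlx1, Dlx2 and Dlx6 the exact p was 0.962, 0.437 and 0.647. The smallest p this test can give is 0.0035, reached by Dlx5, which is too large to pass once adjusted over all genes here. A p over the threshold does not show that levels were equal. A pool of RNA from a whole embryo cannot tell fewer cells of a type from less RNA per cell.

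Msx1, a repressor that keeps mesenchyme of arches and limbs proliferating, read 7.32, 7.06 and 8.11 FPKM in the 3 xHet embryos. Over the xHomo embryos its lowest value was 6.81, the median 11.6 and the highest 15.6 FPKM. All xHomo embryos but embryo 2 were above every xHet embryo. The change on the log2 scale was 0.53 (SE 0.19, limma p = 0.0124, adjusted p = 0.494). Msx1as was at a higher level: xHet embryos held 21.6, 18.1 and 20.1 FPKM, and the xHomo range was 19.8 to 34.1 FPKM (log2 change 0.28, SE 0.14, limma adjusted p = 0.544). The ratio of Msx1as to Msx1, which does not depend on library scaling, was 2.67 ± 0.257 (SD, n = 3) in xHet and 2.19 ± 0.294 (SD, n = 10) in xHomo embryos.

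Msx2, the partner of Msx1 in skull, limb and roof plate, stood at 9.25, 8.20 and 8.58 FPKM in xHet embryos. Its xHomo values had a low of 9.73, a median of 10.9 and a high of 17.3 FPKM. The groups did not overlap, and the highest value belonged to xHomo embryo 9. The log2 change was 0.39 (SE 0.13, limma p = 0.0102, adjusted p = 0.494), and 0.34 (adjusted p = 0.476) without that embryo. Msx3, a family member limited to the dorsal neural tube, stood at 7.13 ± 0.654 FPKM (SD, n = 3) and 8.05 ± 1.42 FPKM (SD, n = 10), with limma adjusted p = 0.759.

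Dlx5, needed for the lower jaw and inner ear, stood at 3.64, 3.71 and 3.98 FPKM in xHet embryos. In xHomo embryos it ranged from 4.03 over a median of 4.91 to 5.81 FPKM. The groups did not overlap, though the gap between them was 4.03 against 3.98 FPKM. Its log2 change was 0.29 (SE 0.10, limma p = 0.0121, adjusted p = 0.494). Its SD among xHomo embryos, 0.14 on the log2 scale, was the smallest of the 7 tested members, at percentile 11.3 of all genes tested.

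Dlx6, the linked partner with the same arch role, was 2.50, 2.32 and 2.16 FPKM in xHet embryos. Its xHomo values reached from 0.98 over a median of 2.79 to 3.84 FPKM. These enclosed the xHet values, with 7 of 10 xHomo embryos above and 2 below all of them. Its log2 change was 0.11 (95% CI -0.35 to 0.57, limma adjusted p = 0.89). The noncoding transcripts at its locus were low, Dlx6as1 at 0.32 to 1.27 FPKM and Dlx6as2 at no more than 0.18 FPKM. The ratio of Dlx5 to Dlx6 was 1.46, 1.60 and 1.84 in xHet embryos and 1.15 to 2.22 in 8 xHomo embryos. It was 3.13 in xHomo embryo 1 and 5.30 in xHomo embryo 9, where Dlx6 was low and Dlx5 was not.

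The Dlx6 locus starts 2.06 Mb from the end of Peg10, an imprinted gene expressed from the paternal copy on the same chromosome. Peg10 was 0.03, 0.01, 0.05 and 0.01 FPKM in xHomo embryos 1, 7, 8 and 9. Dlx5 was 5.42, 4.84, 4.98 and 5.19 FPKM there. Dlx6 was 1.73, 3.10, 2.86 and 0.98 FPKM in the same embryos, the lowest of all 13 embryos among them. Peg10 was 66.8 to 127 FPKM in xHomo embryos 2 to 6, where Dlx5 was 4.42, 4.08, 4.70, 5.81 and 4.03 FPKM. Dlx6 was 3.84, 3.34, 2.54, 3.43 and 2.72 FPKM in those. In xHomo embryo 10, with Peg10 at 4.19 and its neighbour Sgce at 3.33 FPKM, Dlx5 was 5.05 and Dlx6 2.28 FPKM. A division of embryos by Peg10 would be one by a measured outcome, so no test was made of it.

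Dlx3, an activator of epidermal and placental genes, was 2.07, 1.93 and 2.27 FPKM in xHet embryos. Among xHomo embryos the lowest value was 2.57, the median 3.35 and the highest 4.87 FPKM. The groups did not overlap. The log2 change was 0.53 (SE 0.15, limma p = 0.00335, adjusted p = 0.449), the smallest p of the members. On the trophoblast list, 4 of 13 genes were tested and 0 passed. Hand1 and Tfap2c, which heart and surface ectoderm also express, had unadjusted p under 0.05 there, both higher, against 7.63% of all genes. Prl3b1 and Plac1, the other tested genes, had log2 changes of -0.50 and -0.13 (limma adjusted p = 0.647 and 0.858). The summed level of that list was 19.1 to 21.8 FPKM in xHet and 19.9 to 31.3 FPKM in xHomo embryos, with Hand1, Plac1 and Tfap2c its 3 most abundant genes. Its part in the Dlx3 values was not tested. Dlx4, its neighbour, was 0.19, 0.06 and 0.24 FPKM in xHet and 0.04 to 0.34 FPKM in 9 xHomo embryos, and listed at 0 in xHomo embryo 3. It stayed below the filter and is given without a test.

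Dlx1, expressed in arch mesenchyme and ventral forebrain, stood at 1.40, 1.41 and 1.49 FPKM in xHet embryos. The xHomo values spread to both sides, with 0.79 as the lowest, 1.51 as the median and 2.06 FPKM as the highest. The log2 change was -0.01 (95% CI -0.32 to 0.31, limma adjusted p = 0.988), and its sign turned with several settings. Dlx1as was 1.95, 2.10 and 1.41 FPKM in xHet and 0.37 to 2.26 FPKM in xHomo embryos (limma adjusted p = 0.753). Dlx2 stood at 3.87, 3.87 and 3.45 FPKM in xHet embryos. Its lowest xHomo value was 2.17, the median 4.70 and the highest 5.18 FPKM. Of 10 xHomo embryos 7 were above and 1 was below all xHet values (log2 change 0.13, 95% CI -0.23 to 0.50, limma adjusted p = 0.821).

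**Figure D2:**
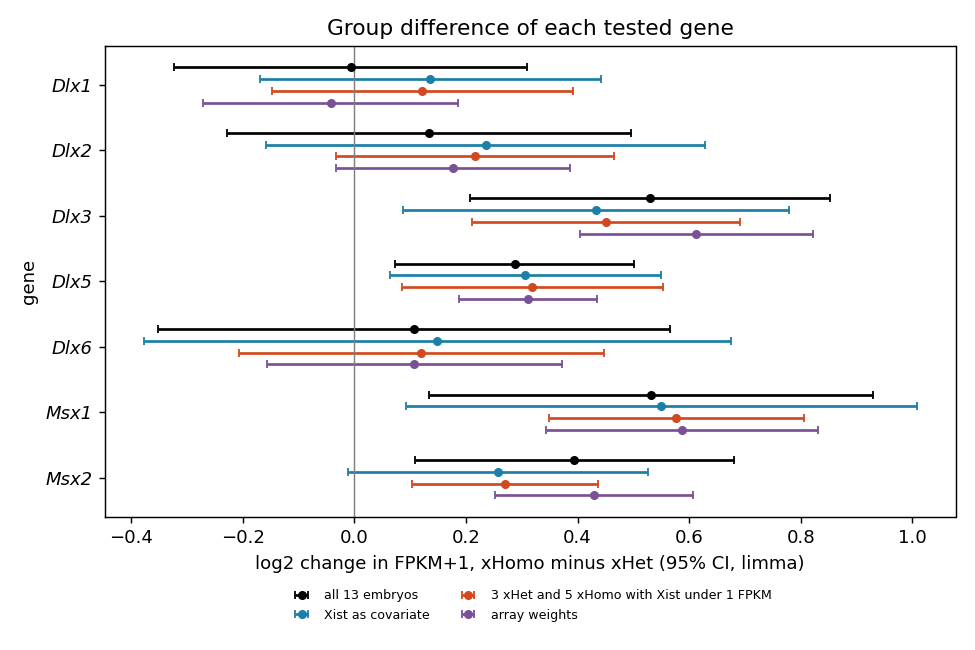
Group difference of the 7 tested genes (horizontal axis: log2 change in FPKM+1, xHomo minus xHet, with 95% confidence intervals from limma), for all 13 embryos, with Xist as a covariate, for the embryos with Xist under 1 FPKM, and with array weights. Intervals of Dlx3, Dlx5 and Msx1 lie above 0 in each of the 4 fits, that of Msx2 reaches 0 with the Xist covariate, and those of Dlx1, Dlx2 and Dlx6 include 0 throughout.

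The Xist split gave a check inside embryos of 1 kind. Among the 3 xHet and 5 xHomo embryos with Xist under 1 FPKM, the log2 change was 0.58 (SE 0.10) for Msx1, 0.45 (SE 0.11) for Dlx3, 0.32 (SE 0.10) for Dlx5 and 0.27 (SE 0.07) for Msx2. Limma adjusted p-values were 0.0638, 0.117, 0.177 and 0.141, so 0 of 7 passed there as well. For Msx2 the size was 0.27 there, against 0.39 in all embryos. Embryos with high Xist were xHomo in every case, so no comparison of groups was possible among them. Array weights, which give less weight to libraries that vary more, changed the call. With them Dlx3, Dlx5, Msx1 and Msx2 passed as higher (limma adjusted p = 0.00326, 0.00554, 0.0065 and 0.00627). These are 4 of 7 higher and 0 lower, against a background of 18.6% of genes higher and 3.2% lower. The weight was 0.104 for xHomo embryo 3 and 3.69 for xHet embryo 2. Without xHomo embryos 3 and 9, a choice made after seeing the data, the log2 changes were 0.50 for Dlx3, 0.30 for Dlx5, 0.52 for Msx1 and 0.34 for Msx2, and 0 of 7 passed (limma adjusted p = 0.192, 0.206, 0.238 and 0.192). Dlx2 was 0.20 and Dlx6 0.18 in that fit (limma adjusted p = 0.376 and 0.554).

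The members also differed from embryo to embryo within the xHomo group. The xHomo embryo 9 held the lowest value of all 13 for Dlx1, Dlx2 and Dlx6 (0.79, 2.17 and 0.98 FPKM). It also held the highest for Dlx3, Msx1 and Msx2 (4.87, 15.6 and 17.3 FPKM). The ratio of Msx1 to Dlx2 was 1.89, 1.82 and 2.35 in xHet embryos and 7.20 in xHomo embryo 9. In the other 9 xHomo embryos it was 1.76 to 3.79. Since this ratio is taken within an embryo, library scaling does not enter it. This embryo also had 4.56% of genes far from the xHet mean, and the part of that was not tested. The xHomo embryo 7 ranked next to it for Dlx3, Msx1 and Msx2 (4.70, 14.9 and 13.9 FPKM) but had Dlx2 at 4.85 and Dlx6 at 3.10 FPKM. The xHomo embryo 2 had the lowest Msx1 (6.81 FPKM) and the highest Dlx6 (3.84 FPKM) of all 13 embryos. The SD of log2(FPKM+1) was 0.14 to 0.38 among xHomo embryos for the 7 tested genes, where the median of all genes was 0.23. Among xHet embryos it was 0.03 to 0.09, where that median was 0.10.

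**Figure D3:**
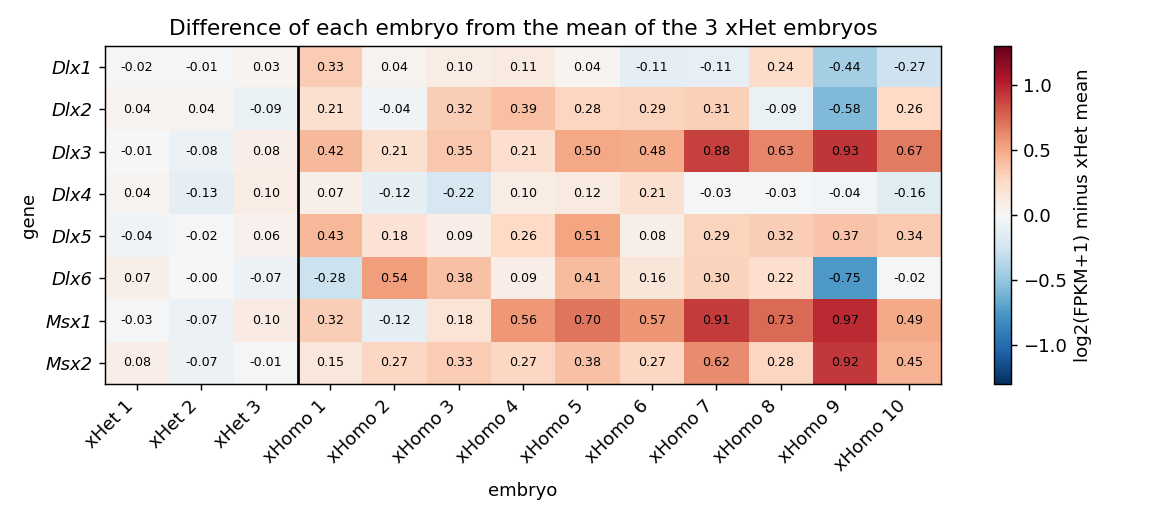
Difference of log2(FPKM+1) from the mean of the 3 xHet embryos for each gene (rows) and embryo (columns), with red for higher and blue for lower. Dlx3, Dlx5 and Msx2 are above 0 in all 10 xHomo embryos, and the column of xHomo embryo 9 joins the lowest entries of Dlx1, Dlx2 and Dlx6 (-0.44, -0.58 and -0.75) to the highest of Dlx3, Msx1 and Msx2 (0.93, 0.97 and 0.92).

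Correlations over the 10 xHomo embryos asked whether members vary together. All 28 pairs were taken, and 7, all with Dlx2, got no coefficient under the rule for separate clusters. In Dlx2 the gap set xHomo embryo 9 alone (2.17 FPKM) apart from the other xHomo embryos (3.45 to 5.18 FPKM). The linked pair of Dlx1 with Dlx2 was among those left out. Dlx5 and Dlx6, though linked, gave Pearson r = -0.359 (permutation p = 0.309, or 0.464 adjusted). The Spearman rho was -0.333 (permutation p = 0.35, or 0.668 adjusted), and r was -0.301 once the 2 embryos farthest out in Dlx5 were dropped. Dlx3 and Dlx4 gave r = -0.0793 (permutation p = 0.822, or 0.863 adjusted). The Spearman rho was -0.0547 (permutation p = 0.883, or 0.927 adjusted), and r was -0.00739 once 2 embryos were dropped. Msx1 and Msx2, which are not linked, gave r = 0.647 (permutation p = 0.0437, or 0.226 adjusted). The Spearman rho was 0.673 (permutation p = 0.0382, or 0.2 adjusted), and r was 0.573 once 2 embryos were dropped.

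Among the pairs with a coefficient, over which p was adjusted, 3 passed by Pearson r and 0 by Spearman rho. Dlx3 with Msx2 gave r = 0.807 (permutation p = 0.00227, or 0.0238 adjusted). The Spearman rho was 0.842 (permutation p = 0.00368, or 0.0577 adjusted), and r was 0.449 once 2 embryos were dropped. Dlx3 with Msx1 gave r = 0.80 (permutation p = 0.00492, or 0.0344 adjusted). The Spearman rho was 0.818 (permutation p = 0.0055, or 0.0577 adjusted), and r was 0.62 once 2 embryos were dropped. Dlx1 with Msx2 gave r = -0.841 (permutation p = 0.0019, or 0.0238 adjusted). The Spearman rho was -0.733 (permutation p = 0.0203, or 0.142 adjusted), and r was -0.67 once 2 embryos were dropped. These calls were not stable. Without xHomo embryo 9 the 3 values were 0.738, 0.736 and -0.697 and none passed (permutation adjusted p = 0.242, 0.242 and 0.258). No pair passed either without xHomo embryo 10, after median-of-ratios scaling or after TPM rescaling. Without xHomo embryo 7 none passed, but Msx2 then gets no coefficient under the rule for separate clusters, with xHomo embryo 9 alone apart. Dlx3 with Msx1 alone also failed without xHomo embryo 2, 3, 5, 6 or 8 (permutation adjusted p from 0.051 to 0.131). Within the 5 xHomo embryos of either Xist level there are too few samples for a coefficient.

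**Figure D4:**
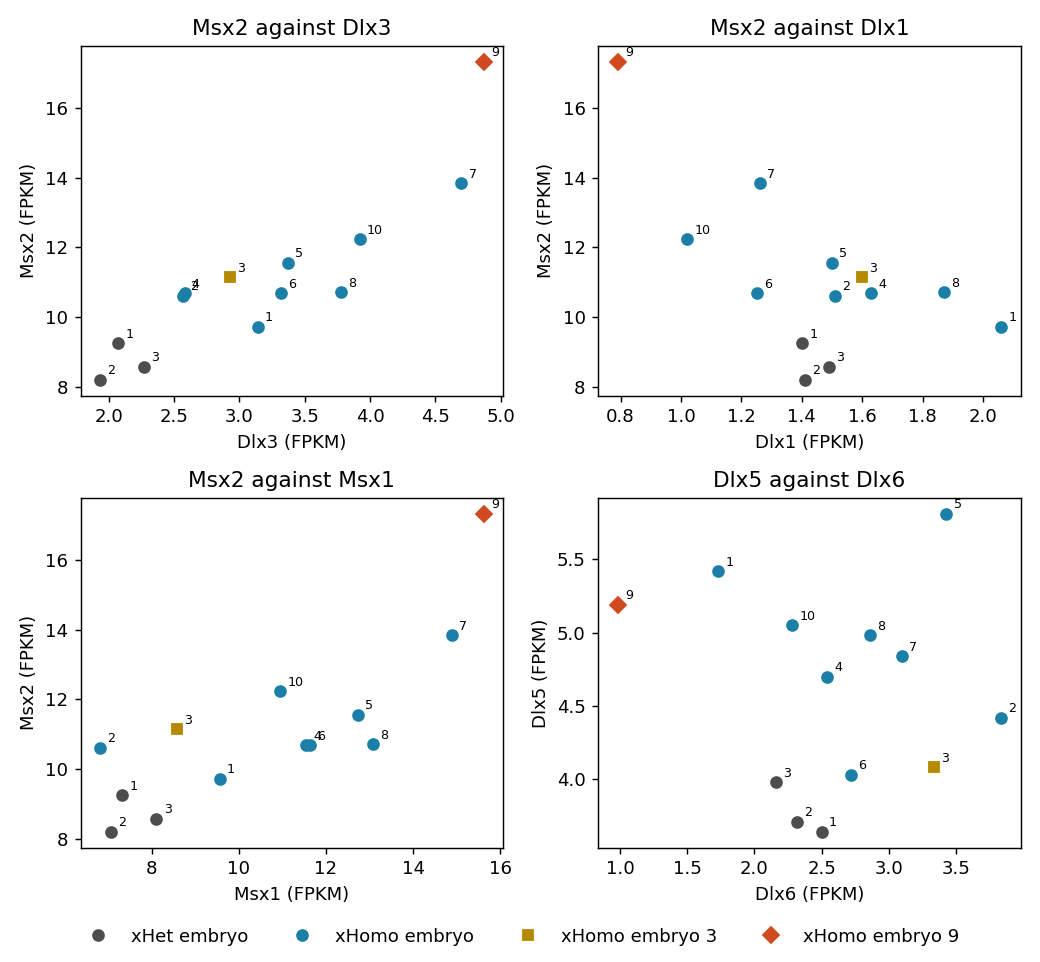
Msx2 against Dlx3, Dlx1 and Msx1, and Dlx5 against Dlx6, in FPKM on linear axes that do not start at 0, with 1 numbered point per embryo. In the first 3 panels xHomo embryo 9 is the highest point (Msx2 17.3 FPKM). It lies at the upper right against Dlx3 and Msx1 and at the upper left against Dlx1 (0.79 FPKM). In the last panel embryos with high Dlx5 range from the lowest Dlx6 (0.98 FPKM) to 3.43 FPKM.

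Genes whose levels ran most like each member over the 13 embryos were named by the highest Pearson r of log2(FPKM+1) among all genes tested. As the highest of so many, these r are a description without a p, and the points share library scaling. For Dlx3 they were Lrrc1 (r = 0.971), Sertad1 (0.964) and Cryz (0.963), and for Msx1 they were Fiz1 (0.967), Ssbp3 (0.957) and Zfp36l1 (0.952). Msx2 ran most like Prr5 (0.941), Anxa7 (0.933) and the homeobox gene Hoxc11 (0.922). Closest to Dlx5 were Uck1 (0.88), Ier2 (0.874) and Ccnd3 (0.863), and to Dlx6 Polr2l (0.903), Tpm3 (0.899) and Phf5a (0.896). Nans (0.875), 1110008F13Rik (0.874) and Hpgd (0.86) were closest to Dlx2. For Dlx1 the values were lower, with Mon1a at 0.809, Dpm2 at 0.799 and Snord4a at 0.786, and without the 2 embryos farthest from its median they fell to 0.416, 0.447 and 0.252. No linked partner was among the 3 nearest genes of any member.

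Genes around the members on the chromosome were read beside them. Metap1d, before Dlx1, stood at 14.5 ± 2.06 FPKM (SD, n = 3) and 14.7 ± 2.995 FPKM (SD, n = 10), and Itga3, before Dlx3, at 19.1 ± 1.65 and 16.4 ± 3.67 FPKM. Shfm1, before Dlx6, stood at 224 ± 17.6 and 262 ± 38.7 FPKM, and Acn9, after Dlx5, at 6.26 ± 0.713 and 7.15 ± 1.42 FPKM. Stx18, after Msx1, stood at 11.8 ± 0.808 and 14.1 ± 1.44 FPKM. Others were near 0: Gm1631 after Dlx2, Tac4 after Dlx4, Gm2762 and Drd1a around Msx2, and Cytl1 before Msx1 did not exceed 0.62 FPKM.

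BMP signalling stands upstream of both families, and its genes were taken as lists. Of 12 tested ligands and receptors 0 passed in either direction in limma, with a median log2 change of 0.07 beside 0.05 for all genes tested, and 1 had an unadjusted p under 0.05. Bmp4, the ligand best known for inducing Msx genes, stood at 17.6 ± 1.28 FPKM (SD, n = 3) and 19.5 ± 3.39 FPKM (SD, n = 10), and Bmp2 at 2.72 ± 0.505 and 2.60 ± 0.71 FPKM (limma adjusted p = 0.823 and 0.92). Bmp6 stood at 1.16 ± 0.11 and 1.66 ± 0.321 FPKM, and Bmp7 at 9.30 ± 0.821 and 12.0 ± 2.61 FPKM (limma adjusted p = 0.52 and 0.591). Of 10 tested Smads and feedback targets 0 passed, 3 had an unadjusted p under 0.05, all higher (7.63% of all genes were), and the median change was 0.17. Id3, an inhibitor of helix-loop-helix factors that BMP induces, stood at 122 ± 4.21 and 161 ± 19.5 FPKM, and Smad6, a feedback inhibitor, at 5.89 ± 0.428 and 7.88 ± 1.09 FPKM (limma adjusted p = 0.449 and 0.481). For both, the 10 xHomo values all exceeded the xHet values, as for 1.66% of all genes. Of 6 tested antagonists 0 passed and 0 had an unadjusted p under 0.05. Bmper stood at 1.83 ± 0.238 and 1.35 ± 0.396 FPKM, and Chrd at 1.54 ± 0.168 and 1.25 ± 0.359 FPKM.

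The endothelin axis, which turns on Dlx5 and Dlx6 in the lower arch, had 11 tested genes, of which 0 passed and 2 had an unadjusted p under 0.05, both higher, against 7.63% of all genes. Edn1, the ligand, stood at 3.45 ± 0.656 and 2.88 ± 1.15 FPKM, and its receptor Ednra at 14.1 ± 1.15 and 12.4 ± 3.15 FPKM (limma adjusted p = 0.759 and 0.779). Hand2, a target of Dlx5 and Dlx6 in the arch that heart and limb also express, stood at 8.42 ± 0.349 and 10.9 ± 1.36 FPKM, and Hand1 at 9.03 ± 0.19 and 12.6 ± 1.59 FPKM (limma adjusted p = 0.481 and 0.372). For this pair too the groups did not overlap, against 1.66% of genes. Tnnt2, the heart gene with the smallest p of 7 tested, stood at 38.2 ± 1.55 and 46.7 ± 6.16 FPKM (adjusted p = 0.517 in limma). Log2 changes over the heart list ran from -0.19 to 0.30, with a median of 0.23. The part of heart tissue in the Hand genes was not tested.

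Tissues in which the members are expressed were read through further lists, and 0 genes passed on any of them in limma without array weights. With array weights 29 of 100 tested list genes passed in either direction, against 18.6% of all genes higher and 3.2% lower. That count leaves out the lists of heart, neural tube, somite, blood, trophoblast, decidua and yolk sac endoderm. Counts at an unadjusted p under 0.05 are all of higher genes and stand against 7.63% of all genes. Cranial neural crest mesenchyme (12 tested, 1 with an unadjusted p under 0.05) had a median change of 0.20. There Twist2 stood at 9.08 ± 1.24 and 13.6 ± 1.91 FPKM and Prrx1 at 15.1 ± 1.01 and 18.1 ± 2.92 FPKM. Limb ridge and surface ectoderm (10 tested, 2 with such a p) had a median of 0.23, with Trp63, a master gene of stratified epithelium, at 1.71 ± 0.375 and 2.45 ± 0.407 FPKM and Grhl3 at 0.783 ± 0.0208 and 1.22 ± 0.297 FPKM. Fgf8, a signal of the limb ridge, stood at 13.01 ± 1.14 and 19.1 ± 6.07 FPKM (limma adjusted p = 0.544). Ventral forebrain genes (6 tested, 2 with such a p) had a median of 0.24, with Six3 at 2.33 ± 0.12 and 3.10 ± 0.468 FPKM. Roof plate and dorsal neural tube (9 tested, 0 with such a p) had a median of 0.22, with Rspo3 at 7.36 ± 0.55 and 9.18 ± 1.96 FPKM and Wnt1 at 4.32 ± 0.92 and 6.82 ± 3.27 FPKM. Placodal genes (11 tested, 0) had a median of 0.06 and other homeobox genes of related classes (11 tested, 0) one of 0.13. Examples are Eya2 at 5.38 ± 0.692 and 6.73 ± 1.25 FPKM, Otx2 at 12.0 ± 2.15 and 14.1 ± 2.37 FPKM and Emx2 at 2.66 ± 0.598 and 3.45 ± 0.617 FPKM. Somite genes had a median of -0.09 (7 tested, 0) with changes to both sides, Meox1 standing at 26.3 ± 2.01 and 22.9 ± 2.33 FPKM and Tcf15 at 10.1 ± 0.535 and 12.5 ± 2.38 FPKM. Lists of blood (6 tested, 0), neural tube (6 tested, 0) and yolk sac endoderm (4 tested, 0) had medians of -0.03, 0.02 and 0.07. Heart (7 tested, 1 with such a p) had a median of 0.23, and decidua (6 tested, 3 with such a p, all higher) one of 0.28. The decidua genes with such a p were Hand2, Wnt4 and Des (unadjusted limma p = 0.00791, 0.0152 and 0.0309). Embryos express Hand2 and Wnt4 as well. Of the other tested genes on that list, Cryab and Dcn had log2 changes above 0 (0.28 and 0.12) and Bmp2 one below (-0.06). The defining Prl8a2 was listed at 0 in 11 of 13 embryos, and Pgr did not exceed 0.18 FPKM. Over the 13 embryos Dcn was 2.88 to 9.17, Des 11.16 to 18.29 and Cryab 5.27 to 9.95 FPKM. The summed level of the decidua list was 39.2 to 45.1 FPKM in xHet and 44.1 to 56.1 FPKM in xHomo embryos, and its part in the members' values was not tested.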

How the data were processed

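Gene levels are FPKM, deposited by the authors as 1 table with mm9 loci. The tools listed are bcl2fastq 1.8.2, Cufflinks and TopHat, per the submitters' processing notes. For the latter pair no version is stated, nor are annotation, filters or strand use. Poly(A) RNA was made into directional libraries, per the labels' protocols. Locus starts were taken as counted from 0, since 7169 locus lengths then equalled RefSeq gene lengths and 455 otherwise, and are printed counted from 1.

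The 12755 genes averaging 1 FPKM or more were fitted on log2(FPKM+1) in R 4.3.3 by limma 3.58.1 (moderated with a trend, two-sided, Benjamini-Hochberg over all genes, threshold 0.05), a scale that understates changes of low genes. FPKM keeps no counts, so depth is unknown and its precision cannot be given. Correlations used 100000 permutations. Values were called separate clusters where the largest gap exceeded 0.5 of the range. Other steps ran under scipy 1.17.1, pandas 2.3.3, numpy 2.4.6, matplotlib 3.10.9 and Python 3.11.15.

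Members and lists were chosen with earlier results of these data known. Named by rule were the members, overlapping transcripts and flanking genes, 2 genes of smallest p per list with Bmp4, Bmp2, Edn1, Ednra, Hand2 and Fgf8, the 3 most alike genes per member, Peg10, Sgce and Xist; Tet1, Tcf15 and the other trophoblast and decidua markers were chosen after their values were seen. Some items under this rule are not reported here. Alternatives tried were other pseudocounts, no filter, 3 rescalings, an Xist covariate, Xist-low embryos, array weights, a replicate block, exact permutation and leaving out embryos.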

Additional observations from a re-analysis of the deposited data

Results flagged for a closer look

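Dlx2 in xHomo embryo 9, at 2.17 FPKM, lay apart from the other 9 xHomo embryos on the log2 scale: the gap to the next value was 0.508 of the range, over Dixon's critical value for 10 samples. Dlx1as in the same embryo, at 0.37 FPKM, lay apart in the same way (0.482 of the range). Of 10 genes examined these 2 passed; chance alone marks about 5% of groups.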

How the results depend on the processing

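Over 25 alternatives each for the 7 tested members, Dlx2, Dlx3, Dlx5, Dlx6, Msx1 and Msx2 kept their direction. Exact permutation and the fit without the filter use the same log2 values, so direction could not change in them. Members passing numbered 0 in all alternatives but array weights, where 4 passed. With those weights listed genes passing went from 0 to 29 of 100, against 18.6% of all genes higher and 3.2% lower. That count leaves out the lists of heart, neural tube, somite, blood, trophoblast, decidua and yolk sac endoderm. Dlx1 (log2 change -0.01) turned to 0.0013 with a pseudocount of 5, 0.0116 after quantile normalization, 0.14 with the Xist covariate, 0.12 in Xist-low embryos and 0.16 with the replicate block, and to 0.0347 without xHomo embryos 3 and 9, a setting added after seeing the data. Leaving out 1 embryo gave -0.0444 to 0.0415 for Dlx1. Over the same omissions the range was 0.49 to 0.57 for Dlx3, 0.26 to 0.32 for Dlx5, 0.48 to 0.60 for Msx1 and 0.34 to 0.44 for Msx2. A pseudocount of 5 brought Dlx3 to 0.26, Dlx5 to 0.16 and Msx1 to 0.39, as the scale shrinks low genes.

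All genes passing numbered 3, against 2779 with array weights, 13 in Xist-low embryos, 11 without the filter, 8 without xHomo embryos 3 and 9, 5 after TPM rescaling or quantile normalization, 1 with the Xist covariate or the replicate block and 1 to 11 on leaving out 1 embryo; the cause was not tested. Exact permutation passed 0, but its smallest p, 0.0035, is too large to pass over so many genes here. Deviations of same-numbered embryos from their group means had correlations of -0.065, -0.04 and -0.038. Over all pairs of an xHet with an xHomo embryo these ran from -0.143 to 0.116. With only 3 xHet embryos this cannot decide whether the numbers mark a pairing. The replicate block uses only xHet and xHomo embryos 1 to 3; with it 0 members passed and Msx1 was 0.12, Dlx3 0.33 and Msx2 0.25.

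Of 28 pairs of members 7 got no coefficient and 3 passed in correlation. The number passing was 0 after median-of-ratios scaling or TPM rescaling, and 0 to 3 on leaving out 1 embryo. The cause was not tested. Dlx3 with Dlx4 ran from -0.2694 to 0.0501 on leaving out 1 embryo, and was above 0 without xHomo embryo 4 or 10. Dlx1 with Dlx2 could be taken after median-of-ratios scaling (r = 0.562) and TPM rescaling (r = 0.607) and did not pass (permutation adjusted p = 0.471 and 0.3). The order of levels had 3 of 7 neighbours separated and 3 to 4 in its alternatives.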
